A study of Homo sapiens with 6 samples.

Results

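The nuclear genes for the subunits of oxidative phosphorylation were examined by RNA-seq after silencing of ANXA1 in CCRF-SB cells, as labelled, a human lymphoblast-like line of B cell acute lymphoblastic leukemia. Members were the genes annotated as protein coding whose symbol begins with NDUFA, NDUFB, NDUFC, NDUFS or NDUFV, with UQCR, with COX4 to COX8 or with ATP5, together with SDHA to SDHD, CYC1 and CYCS. Assembly factors whose symbol begins with NDUFAF were left out. The rule used no measured value and gave 93 of 58735 genes: 38 of complex I, 4 of complex II, 10 of complex III, 19 of complex IV, 21 of complex V and the gene for cytochrome c. NDUFA4 and NDUFA4L2 were counted with complex IV, of which the NDUFA4 protein is a subunit.

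The siControl group consisted of 3 libraries of cells that had been given an empty lentiviral vector, and the siANXA1 group of 3 libraries of cells given a lentiviral vector with an ANXA1-silencing RNA. All 6 were labelled wild type and day 5, and had been grown in RPMI-1640 with serum, with puromycin named as the selection for cells carrying the silencing vector. No label states that replicates came from separate cultures. The p-values therefore refer to the spread among these 6 samples alone, and that spread may be technical. Levels are given as CPM, counts relative to the library size scaled by TMM, and levels between genes as TPM, which also divides by transcript length.

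In oxidative phosphorylation, complex I takes electrons from NADH and complex II from succinate, and both pass them to ubiquinone. Complex III passes them on to cytochrome c and complex IV to oxygen, while complexes I, III and IV pump protons across the inner mitochondrial membrane. Complex V, the ATP synthase, makes ATP as protons flow back through its membrane ring. All but complex II contain subunits encoded in mitochondrial DNA, so the nuclear and mitochondrial genomes contribute to the same complexes. Several nuclear subunits exist as paralogs that are used in different tissues.

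The promoters of 5 members are shown because they hold motifs commonly linked to nuclear genes of mitochondrial proteins, or because a paralog was not detected in these libraries. Each is the window from 250 bases before to 50 bases after the start of the gene in RefSeq on GRCh38.p14, written 5′ to 3′ on the gene's own strand. Capitals mark the longest form of each motif found there. COX6A1 (subunit VIa of complex IV in most tissues; chr12:120437863-120438162, plus strand) and its heart and muscle paralog COX6A2 (chr16:31428311-31428610, minus strand) are shown as a pair of which the second had no count. In COX6A1 the capitals mark an ETS motif on the opposite strand, and in COX6A2 the letters TATAAA.
COX6A1: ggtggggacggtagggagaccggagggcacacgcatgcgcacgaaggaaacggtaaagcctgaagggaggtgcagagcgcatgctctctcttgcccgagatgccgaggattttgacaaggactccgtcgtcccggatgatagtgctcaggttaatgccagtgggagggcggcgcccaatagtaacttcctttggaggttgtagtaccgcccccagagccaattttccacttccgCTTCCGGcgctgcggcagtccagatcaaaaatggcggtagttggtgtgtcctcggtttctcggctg
COX6A2: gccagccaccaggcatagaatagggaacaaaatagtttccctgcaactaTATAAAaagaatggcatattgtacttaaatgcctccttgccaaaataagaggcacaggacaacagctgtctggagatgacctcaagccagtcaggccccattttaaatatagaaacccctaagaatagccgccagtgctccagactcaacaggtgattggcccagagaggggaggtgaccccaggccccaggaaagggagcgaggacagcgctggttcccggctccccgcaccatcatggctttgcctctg
SDHB (chr1:17053983-17054282, minus strand) encodes the iron-sulfur subunit of complex II, and its window held an ETS motif followed by a YY1 motif. SDHD (chr11:112086623-112086922, plus strand), a membrane anchor of the same complex, held an NRF1 motif and an ETS motif on the opposite strand.
SDHB: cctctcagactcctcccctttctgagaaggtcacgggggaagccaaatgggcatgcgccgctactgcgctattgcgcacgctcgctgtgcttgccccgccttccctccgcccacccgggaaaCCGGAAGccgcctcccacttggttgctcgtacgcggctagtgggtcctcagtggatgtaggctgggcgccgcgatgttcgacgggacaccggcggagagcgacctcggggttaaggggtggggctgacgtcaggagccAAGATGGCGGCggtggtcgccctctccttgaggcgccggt
SDHD: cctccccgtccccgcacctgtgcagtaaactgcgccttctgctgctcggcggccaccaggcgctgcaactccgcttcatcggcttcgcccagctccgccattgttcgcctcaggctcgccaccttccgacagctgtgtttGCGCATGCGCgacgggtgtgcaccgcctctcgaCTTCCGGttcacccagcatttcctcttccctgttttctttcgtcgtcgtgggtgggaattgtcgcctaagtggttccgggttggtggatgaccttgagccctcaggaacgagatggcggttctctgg
UQCR11 (chr19:1605413-1605712, minus strand), a small subunit of complex III, held an ETS motif on each strand and 2 copies of the NRF1 motif with 1 free base.
UQCR11: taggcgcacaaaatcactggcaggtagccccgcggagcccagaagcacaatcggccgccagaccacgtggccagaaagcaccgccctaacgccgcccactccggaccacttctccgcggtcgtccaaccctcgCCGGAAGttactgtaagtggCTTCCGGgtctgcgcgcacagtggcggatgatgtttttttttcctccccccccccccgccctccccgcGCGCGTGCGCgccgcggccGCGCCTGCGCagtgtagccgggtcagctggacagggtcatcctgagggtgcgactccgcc

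Across the 72 of 93 members with an entry in the promoter table, the ETS motif CCGGAAG was found in 20 (27.8%), against 10.3% of all 35116 windows and 12.9% of the 21021 windows of protein coding genes. The NRF1 motif, GCGCA directly followed by TGCGC, was found in 4 (5.56%, against 1.24% of all windows and 1.49% of coding ones), and with any base in place of that A in 17 (23.6%, against 5.78% and 7.39%). The YY1 motif, AAGATGGC directly followed by GGC, was found in 4 (5.56%, against 0.849% and 1.20%) and its shorter form AAGATGGC alone in 11 (15.3%, against 2.89% and 3.60%). TATAAA was found in 7 (9.72%, against 11.5% and 9.26%). Both strands were searched, and the longer NRF1 and YY1 motifs are contained in the shorter or freer forms. A match describes the letters of the window and was not tested as a binding site.

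The libraries held 21333951 to 44148505 estimated counts assigned to genes, with siANXA1 replicate 2 the smallest. ANXA1 itself read 3696, 3696 and 3756 CPM in siControl and 1606, 1723 and 1712 CPM in siANXA1, a log2 fold change of -1.14 ± 0.093 (SE). Its edgeR adjusted p was 0.0571, just outside the threshold of 0.05, its DESeq2 adjusted p was 1.41e-17, and the exact two-sided permutation p of 0.1 is the smallest that 3 against 3 libraries allow. On the first principal component of all genes (39.9% of the variance), siControl replicates 1 and 2 and siANXA1 replicate 2 lay on one side and the other 3 libraries on the other, a split that crosses the groups. Defining markers did not match the labelled cell type: of 12 B cell markers, 9 were under 1 CPM in every library, 2 of them with no count at all, and CD24 made up most of their summed level of 42.5 to 83.8 CPM in siControl and 36.9 to 101 CPM in siANXA1. All 13 erythroid and megakaryocyte markers were detected, with a summed level of 711 to 1490 CPM in siControl and 3843 to 5706 CPM in siANXA1, mostly HBE1, HBG1 and HBG2. T cell markers summed to 10.9 to 38.1 and 14.7 to 23.8 CPM, and myeloid markers to 39.8 to 57.7 and 43.2 to 45.3 CPM. The part of this marker difference in the results below was not tested, and in bulk RNA fewer cells of a type and less RNA per cell cannot be told apart.

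Of the 93 members, 86 had enough counts to be tested. The 7 others were COX4I2 and COX6A2, with no count in any library (which allows up to 3 counts, or 0.0680 to 0.141 CPM, by counting error only), COX7A1, COX8C and ATP5MGL, with at most 5 counts in a library, and the readthrough genes NDUFC2-KCTD14 and ATP5MF-PTCD1, with at most 20. Together the members held 1.31% to 1.34% of the gene counts of the siControl libraries and 1.35% to 1.45% of those of the siANXA1 libraries. By length, they took up 2.28% to 2.33% of TPM in siControl and 2.37% to 2.58% in siANXA1. Neither share overlapped between the groups.

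The members were among the more abundant transcripts of these cells. The median of their 6-library mean level was 199.8 TPM, against 16.6 TPM over all 12993 protein coding genes tested, and 82 of the 86 were above the median of those genes. The median member of complex I stood at 140.3 TPM, of complex II at 239 TPM, of complex III at 204 TPM, of complex IV at 253 TPM and of complex V at 409 TPM. UQCRH, the hinge protein of complex III, was the highest at 1866 TPM, followed by COX8A of complex IV at 1089 TPM and NDUFS5 of complex I at 1074 TPM. In complex I the range ran down to NDUFV3 at 21.7 TPM. In complex II it ran from SDHC, a membrane anchor, at 48.8 TPM to SDHB at 370.3 TPM. This contrast rests largely on the deposited lengths, as the main transcript of SDHC, ENST00000367975, is listed with 13566 bases. That of SDHB, ENST00000375499, is listed with 1153. The lowest tested members were paralogs or accessory genes: NDUFA4L2 at 2.77 TPM, COX6B2 at 3.34 TPM, COX7B2 at 4.41 TPM and ATP5S, coupling factor B, at 7.07 TPM. These extremes were named after their values were seen.

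**Figure D1:**
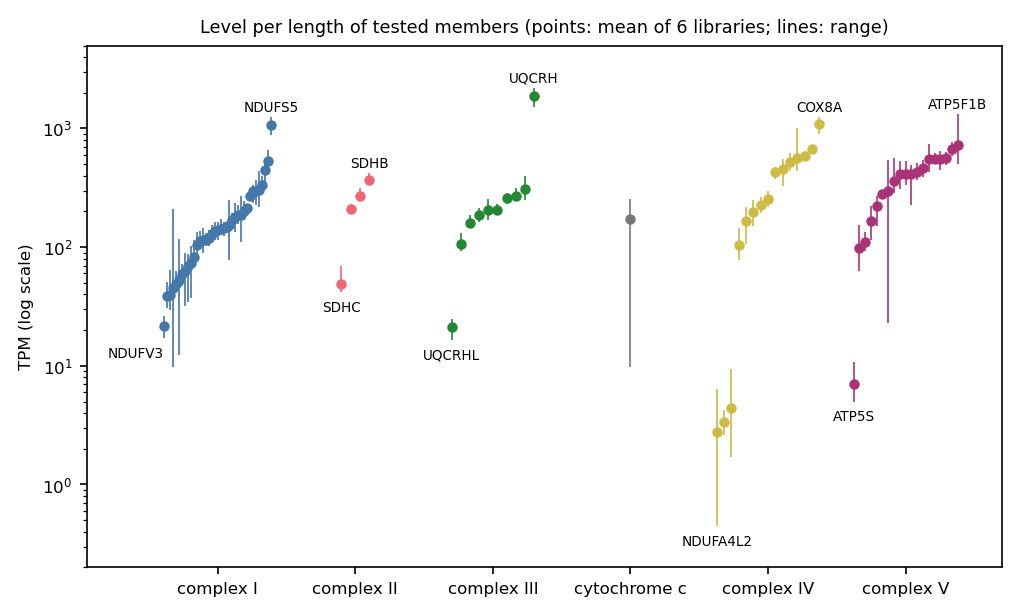
Level per length of the 86 tested members in TPM on a log axis, grouped by complex and ordered within it, with points for the mean of 6 libraries and lines from the lowest to the highest library. The quartiles of the 86 members are 111 and 399.6 TPM, and the lowest and highest member of each complex are named.

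No member passed the test between siANXA1 and siControl. edgeR called 0 of 86 members, against 2 of 17947 genes tested (0.0111%), and DESeq2 called 0 members, against 258 of the 15449 genes with an adjusted p (1.67%). At an unadjusted edgeR p under 0.05 there were 3 members, ATP5MD, ATP5F1B and NDUFA4, where 7.93% of all genes lay, and the smallest adjusted p of a member was 0.605. The 95% intervals bound what could have been missed: in 71 of 86 members (82.6%) the interval of the log2 fold change lay within 1 of 0, which is less than a 2-fold change, against 37.2% of all genes tested and 57.0% of those with a mean of 5 CPM or more, as 83 of the members had. The median standard error was 0.16 for members, 0.36 for all genes and 0.26 for those at 5 CPM or more.

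The small differences leaned one way. The log2 fold change was positive in 62 tested members and negative in 24, against 9070 and 8877 of all genes, and it was positive in 55 members under upper quartile scaling, which lowered the median of all genes from 0.0066 to -0.050. Its median was 0.17 over members and 0.0066 over all genes. Of the genes with a mean of 5 CPM or more, 5745 were positive and 4935 negative, with a median of 0.033. The members' median was 0.21 in complex I, 0.006 in complex II and 0.025 in complex IV. It was 0.21 in complex V, and 0.049 in complex III, where that scaling gave -0.0072. In 22 members every siANXA1 library was above every siControl library, and in 2 members every one was below. These 24 make up 27.9% of the members, against 14.6% of all genes tested (7.41% higher and 7.24% lower) and 15.1% of genes with a mean of 5 CPM or more. By complex, the groups did not overlap in 12 of 37 tested members of complex I (32.4%) and 6 of 19 of complex V (31.6%). They did not overlap in 3 of 10 of complex III, 2 of 15 of complex IV (13.3%) and 1 of 4 of complex II. The share in complex IV was thus below the 14.6% of all genes, and that in complex II rests on 1 gene.

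The values were also read by library. The median deviation of the members from their own 6-library means was -0.053, -0.10 and -0.051 (log2 CPM) in the siControl libraries and 0.088, 0.053 and 0.037 in the siANXA1 libraries. In complex I the medians were -0.051, -0.11 and -0.10 against 0.094, 0.11 and 0.047. The medians of the other complexes overlapped between the groups. When the edgeR fit took in the side of the libraries on the first principal component as a term, the median log2 fold change was 0.15 over members and 5.21e-05 over all genes.

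**Figure D2:**
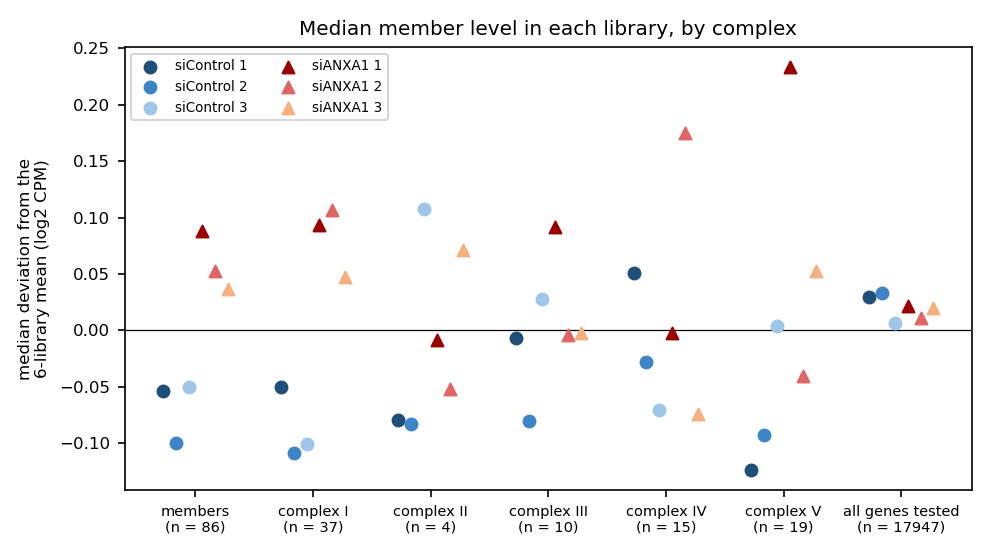
Median deviation of members from their own 6-library mean in log2 CPM, for each library (circles, siControl; triangles, siANXA1), over all tested members, by complex and over all genes tested. Over all members and in complex I the 3 siANXA1 medians are positive and the 3 siControl medians negative, and in the other complexes the groups overlap.

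In complex I, the core subunits encoded in the nucleus include those that carry the flavin and the iron-sulfur clusters. NDUFV1, which binds the flavin that oxidizes NADH, read 134, 118 and 119 CPM in the siControl libraries, by replicate, and 118, 146 and 116 CPM in the siANXA1 libraries. Its neighbour NDUFV2 read 253, 261 and 239 CPM against 275, 327 and 252 CPM, and the iron-sulfur subunit NDUFS1 179, 187 and 196 CPM against 187, 170.1 and 197 CPM. The groups overlapped for each of these, and their log2 fold changes were at most 0.18.

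NDUFS7 and NDUFS8 carry the iron-sulfur clusters nearest to the ubiquinone site, and NDUFS3 is another core subunit. NDUFS3, NDUFS7 and NDUFS8 had log2 fold changes of 0.26 ± 0.16, -0.21 ± 0.17 and 0.06 ± 0.17 (SE), with overlapping groups.

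The accessory subunits of complex I contributed 11 members without overlap, all higher in siANXA1. NDUFA10 read 62.8, 135 and 134 CPM in the siControl libraries, by replicate, and 162, 136 and 163 CPM in the siANXA1 libraries. Its log2 fold change was 0.47 ± 0.31 (SE), and siControl replicate 1 stood apart from the other 5 libraries: without it the value was 0.18. The share of NDUFA10 counts in coding transcripts was 21.5%, 28.6% and 32.2% in siControl and 29.5%, 19.0% and 36.1% in siANXA1. At nearly equal totals, siANXA1 replicate 2 thus held less in coding transcripts than siControl replicates 2 and 3, so over those transcripts the groups overlapped. NDUFB6, a subunit of the membrane arm, read 38.1, 40.5 and 35.6 CPM against 54.6, 50.1 and 44.1 CPM, with 0.38 ± 0.16 (SE) on the log2 scale (edgeR adjusted p = 0.627). The other 9 were NDUFAB1, the mitochondrial acyl carrier protein, and NDUFA5, NDUFA6, NDUFA8, NDUFA11, NDUFB1, NDUFB4, NDUFB8 and NDUFV3, with log2 fold changes from 0.13 to 0.36. NDUFS5, the accessory subunit with the highest count level, read 274, 269.8 and 353 CPM against 396, 335 and 354 CPM, with overlapping groups. None of these passed the edgeR test.

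In complex II, which also serves the citric acid cycle, the interval of the log2 fold change lay within 1 of 0 for all 4 subunits. SDHA, the flavoprotein, was lower in every siANXA1 library, at 279.8, 257 and 253 CPM against 235, 246 and 228 CPM, with -0.15 ± 0.12 (SE) on the log2 scale (edgeR adjusted p = 0.742). Counted over its protein coding transcripts alone the sign turned, to 0.21. SDHB stood at 215 ± 18.4 CPM under the empty vector and 241 ± 27.9 CPM under silencing (SD, n = 3), and its interval of the log2 fold change ran from -0.19 to 0.51. The membrane anchors SDHC and SDHD stood at 148 ± 12.6 CPM under the empty vector and 146 ± 23.5 CPM under silencing, and at 199 ± 23.8 CPM under the empty vector and 205 ± 9.62 CPM under silencing (SD, n = 3), with overlapping groups.

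In complex III, 3 members were higher in every siANXA1 library. CYC1, the cytochrome c1 subunit, read 182, 183 and 186 CPM against 209.7, 221 and 209.9 CPM, a log2 fold change of 0.22 ± 0.12 (SE). The small subunits UQCR10 and UQCR11 read 77.5, 75.5 and 87.1 CPM against 118, 88.5 and 102 CPM and 128, 118 and 123 CPM against 159.8, 147 and 146 CPM. Their log2 fold changes were 0.36 ± 0.16 and 0.30 ± 0.13 (SE), with edgeR adjusted p of 0.641 and 0.627, so none of the 3 passed the test.

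The catalytic Rieske iron-sulfur protein UQCRFS1 had the same mean in both groups, at 209 ± 40.5 CPM under the empty vector and 209 ± 20.9 CPM under silencing (SD, n = 3). The core protein UQCRC2 and the ubiquinone-binding subunit UQCRB also overlapped between the groups, with log2 fold changes of -0.081 ± 0.12 and -0.10 ± 0.12 (SE). UQCRH made up 98.7% of the summed TPM of itself and its near-identical copy UQCRHL in siControl and 99.0% in siANXA1. Reads of these 2 genes can be divided arbitrarily by the estimates.

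CYCS, the gene for cytochrome c, had a wide interval, with 1 library apart. It read 22.6, 342 and 468 CPM in the siControl libraries, by replicate, and 583, 395 and 466 CPM in the siANXA1 libraries, so that siControl replicate 1 was far below the other 5. The log2 fold change was 0.79 ± 0.90 (SE; interval -1.36 to 2.95), and it was 0.24 without that library. The same library's counts of its main coding transcript, ENST00000305786, were 943, against 8515 to 25157 in the others.

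In complex IV, the core is encoded in mitochondrial DNA and the nuclear subunits surround it. COX6A1 varied little, at 225, 214 and 219 CPM in the siControl libraries, by replicate, and 221, 213 and 218 CPM in the siANXA1 libraries. Its log2 fold change was -0.01 ± 0.11 (SE), with an interval from -0.28 to 0.26. COX4I1, which joins early in assembly, read 283, 257 and 244 CPM against 250.5, 235 and 238 CPM, and the zinc-binding subunit COX5B 190.0, 173 and 149 CPM against 189, 165 and 156 CPM, both with overlapping groups. COX8A likewise overlapped, at 308 ± 43.5 CPM under the empty vector and 313 ± 30.8 CPM under silencing (SD, n = 3).

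Both members of complex IV without overlap were higher in siANXA1. COX5A, which pairs with COX4 early in assembly, read 131, 125 and 122 CPM against 155, 152 and 151 CPM, with 0.27 ± 0.12 (SE) as log2 fold change (edgeR adjusted p = 0.635). NDUFA4 read 201, 206 and 167 CPM against 234, 229.8 and 265 CPM, a log2 fold change of 0.35 ± 0.14 (SE; unadjusted p = 0.0499, edgeR adjusted p = 0.627).

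The paralog pairs of complex IV were dominated by the forms of most tissues. COX6A2, of heart and muscle, and COX4I2, of lung, had no count in any library, and COX7A1, of heart and muscle, had at most 0.0829% of the summed TPM of its family. COX8C, of testis, had 2 counts in 1 library. COX6B2, also of testis, held 0.791 ± 0.104% of the TPM of the COX6B pair in siControl and 0.474 ± 0.107% in siANXA1 (SD, n = 3), lower in every siANXA1 library. Over protein coding transcripts alone these shares were 0.405% and 0.303%. The gene's log2 fold change of -0.18 ± 0.31 (SE) turned to 0.046 over those transcripts and to 0.47 with the most abundant transcript. The lowest COX6B2 share, 0.352%, was in siANXA1 replicate 2. There COX6B1 had 5678 counts in ENST00000649813, of 474 bases, and 43 in ENST00000246554, of 667 bases. In the other libraries most of its counts lay in the longer one. A shorter transcript gives more TPM per count, which lowers the COX6B2 share. COX7B2 held 3.40 ± 2.38% and 4.78 ± 1.97% of the COX7B pair, with overlapping groups.

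NDUFA4L2, the hypoxia-induced paralog of NDUFA4, read 2.90, 3.60 and 0.21 CPM against 0.23, 1.05 and 0.546 CPM. Its high libraries, siControl replicates 1 and 2, share a side of the first component with siANXA1 replicate 2, the highest of its group. COX7A2L, a relative of COX7A2 that takes part in forming supercomplexes, held 35.6 ± 11.4% of the family's TPM in siControl and 42.5 ± 0.872% in siANXA1 (SD, n = 3). The wide siControl spread came from replicate 3, at 48.7%, against 28.4% and 29.6% in replicates 1 and 2.

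In complex V, the catalytic head held a member with a lower level in siANXA1 and no overlap. ATP5F1B, the catalytic beta subunit (chromosome 12 from 56638175 to 56646068, on the minus strand; GRCh38), read 1204, 578 and 760.4 CPM in the siControl libraries, by replicate, and 542, 445 and 454 CPM in the siANXA1 libraries. Its log2 fold change was -0.82 ± 0.28 (SE; unadjusted p = 0.023, edgeR adjusted p = 0.61). It was -0.49 without siControl replicate 1, and between -1.04 and -0.76 without any other library. The main coding transcript, ENST00000262030, held 44962, 21237 and 23685 counts in siControl and 22096, 8102 and 15027 in siANXA1.

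Its partners ATP5F1A and ATP5F1C had overlapping groups. ATP5F1A, the alpha subunit, stood at 628 ± 92.1 CPM under the empty vector and 643 ± 42.1 CPM under silencing (SD, n = 3), and ATP5F1C, the gamma subunit of the rotor, at 354 ± 28.4 CPM under the empty vector and 341 ± 24.2 CPM under silencing (SD, n = 3). The share of ATP5F1B in the summed TPM of the 5 head subunits was 39.3 ± 9.13% in siControl and 29.3 ± 1.66% in siANXA1 (SD, n = 3), without overlap. Over protein coding transcripts alone its mean share was 50.3% in siControl and 39.4% in siANXA1, while that of ATP5F1A was only 4.45% and 3.39%. ATP5IF1, the inhibitor that binds the head, read 220.3, 210.4 and 223 CPM against 274, 208 and 272 CPM, with overlapping groups.

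The member with the smallest p was ATP5MD, also called DAPIT, a small subunit of the membrane part (chromosome 10 from 103389041 to 103396492, on the minus strand; GRCh38). It read 79.1, 80.5 and 86.8 CPM in siControl and 132, 104 and 111 CPM in siANXA1, without overlap and with no library apart. The log2 fold change was 0.49 ± 0.15 (SE; interval 0.12 to 0.86; unadjusted p = 0.0165, edgeR adjusted p = 0.605). The promoter table lists it under its later symbol ATP5MK.

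ATP5MC1, ATP5MC2 and ATP5MC3 encode the same mature protein, the c subunit of the proton-driven ring. ATP5MC1 read 52.9, 52.6 and 87.0 CPM against 96.6, 91.1 and 93.5 CPM, for which edgeR gave 0.55 ± 0.23 (SE) on the log2 scale and an adjusted p of 0.627. Its siControl replicate 3 lay near the siANXA1 libraries, and without that library the log2 fold change was 0.82 (edgeR adjusted p = 0.119). ATP5MC2 read 205, 208 and 180.5 CPM against 229.8, 209.8 and 213 CPM, also without overlap. Its log2 fold change was 0.14 ± 0.13 (SE) but turned to -0.21 over protein coding transcripts, which held 42.3% of its counts in siANXA1 replicate 3 and 74.4% to 88.7% in the others. ATP5MC3, the highest of the 3 by CPM, read 494, 494 and 654 CPM against 737, 569 and 657 CPM, with overlap.

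By TPM, ATP5MC1 gave 18.0 ± 4.04% of the c subunit transcripts in siControl and 22.5 ± 2.68% in siANXA1 (SD, n = 3). ATP5MC2 gave 46.1 ± 8.49% and 39.3 ± 4.52%, and ATP5MC3 36.0 ± 4.53% and 38.2 ± 5.77%. All 3 shares overlapped between the groups. The remaining members of complex V without overlap, ATP5PF of the peripheral stalk and ATP5F1E of the head, had log2 fold changes of 0.31 ± 0.14 and 0.26 ± 0.15 (SE).

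**Figure D3:**
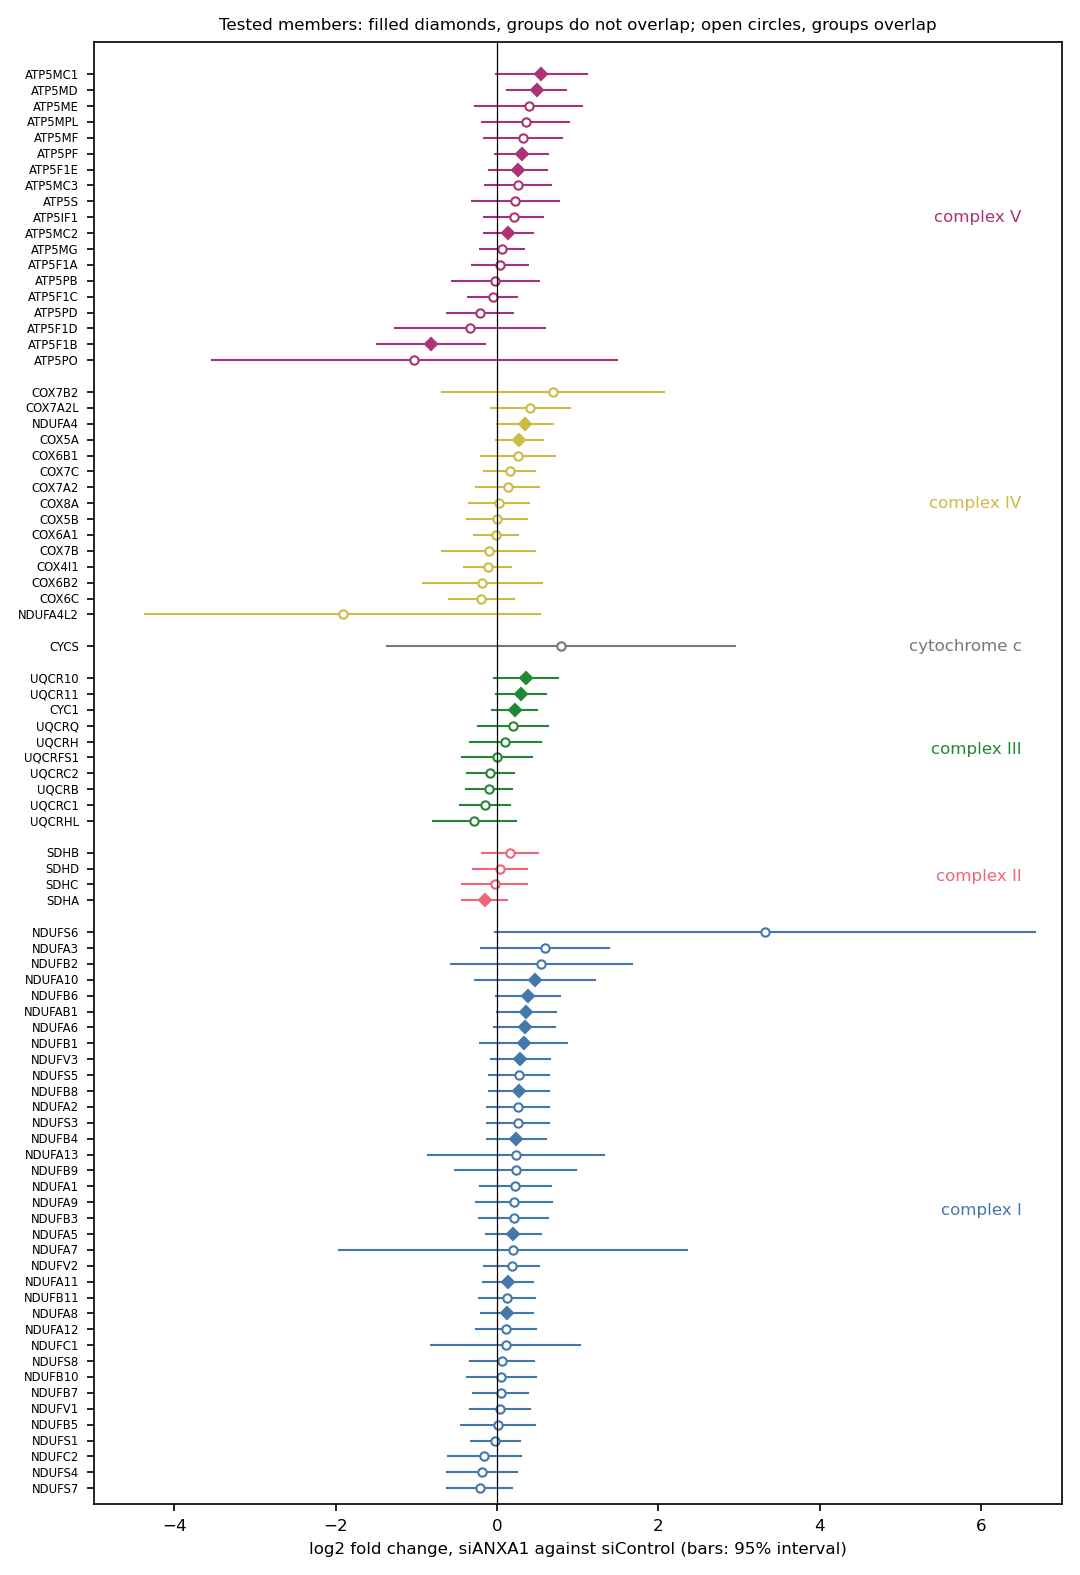
Log2 fold change of the tested members, siANXA1 against siControl, with its 95% interval, by complex. Filled diamonds are members whose groups do not overlap and open circles the others; the longest bars belong to NDUFS6, NDUFA4L2, ATP5PO, NDUFA7 and CYCS.

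The range of each member over the 6 libraries was then compared with that of other genes. Among the 83 members with a mean of 5 CPM or more, the highest library was a median 1.45 times the lowest, against 1.83 times over 10680 such genes, and in 71 members the ratio was under 2. It was over 4 in 4 members (4.82%), against 12.3% of genes. These were CYCS and 3 members named after their values were seen.

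NDUFS6, a zinc-binding accessory subunit of complex I, read 4.40, 4.12 and 4.13 CPM in siControl and 3.27, 118 and 4.996 CPM in siANXA1. Its coding transcript ENST00000274137 held 57 to 78 counts in 5 libraries and 2463 in siANXA1 replicate 2, the one high library. It had a log2 fold change of 3.32 ± 1.39 (SE). NDUFA7, another accessory subunit, read 7.90, 7.86 and 31.6 CPM against 4.003, 36.8 and 13.4 CPM. Its high libraries were siControl replicate 3 and siANXA1 replicate 2, where a transcript annotated for nonsense-mediated decay, ENST00000593729, held 948 and 635 counts, against 1 to 60 in the other 4.

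ATP5PO, the oligomycin-sensitivity subunit that joins the peripheral stalk to the head, read 90.3, 267 and 284 CPM in the siControl libraries, by replicate, and 262, 39.4 and 14.0 CPM in the siANXA1 libraries. It was low in siControl replicate 1 and in siANXA1 replicates 2 and 3, and close to even in the other 3 libraries. The log2 fold change of -1.02 ± 1.04 (SE) had an interval from -3.53 to 1.48.

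**Figure D4:**
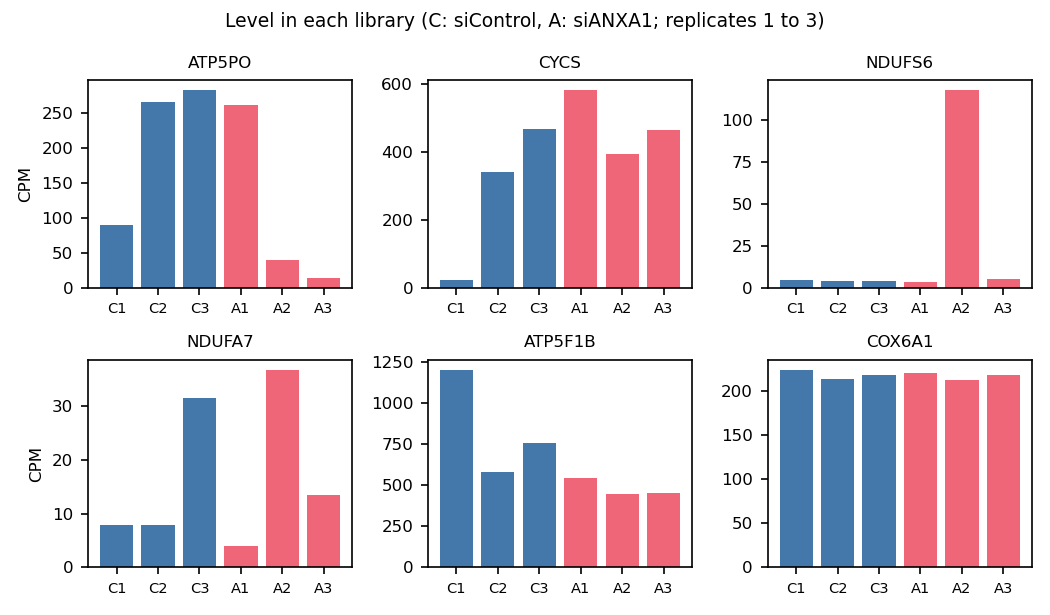
CPM in each library (C, siControl; A, siANXA1) for the 4 members with more than a 4-fold range, for ATP5F1B and, for comparison, for COX6A1. NDUFS6 departs in siANXA1 replicate 2 and CYCS in siControl replicate 1, ATP5PO and NDUFA7 depart in libraries of both groups, and COX6A1 reads between 213 and 225 CPM in all 6.

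The deposited counts are per transcript, so the class of transcript behind each member could be read. In the median member 93.5% of the estimated counts lay in transcripts annotated as protein coding, against 94.8% over all protein coding genes tested, and in 57 of 86 members the share was over 90%. It was under 50% in 3 members. ATP5F1A had 13.9% in coding transcripts and 84.9% in transcripts annotated for nonsense-mediated decay. ENST00000590156, one of these, held 17245, 18453 and 20245 counts in siControl and 2881, 10719 and 20459 in siANXA1. A second, ENST00000586592, held 22185 counts in siANXA1 replicate 1, where the first was lowest, and 0 in siANXA1 replicates 2 and 3. The gene total stayed between 542 and 725 CPM throughout.

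NDUFA10 had 27.8% in coding transcripts and 72.0% in retained-intron transcripts, mostly ENST00000485344. ATP5PB, of the peripheral stalk, had 39.2% in coding transcripts, with a processed transcript, ENST00000369721, at 556, 8280 and 7711 counts in siControl and 11002, 4288 and 8626 in siANXA1. Its coding share was 71.7%, 37.6% and 42.7% in siControl and 23.3%, 28.0% and 31.9% in siANXA1, lower without overlap. The share was also lower without overlap in NDUFB10, NDUFB4, NDUFC1, NDUFS8 and UQCRC1, and higher in COX7A2L, SDHD and UQCRH. How many of all genes did so was not computed. In SDHA the coding share was 56.4%, 53.7% and 53.7% in siControl and 80.6%, 65.8% and 64.4% in siANXA1, higher without overlap. Within the coding class, ENST00000510361 held 572, 77 and 589 counts in siControl and 5157, 2057 and 3468 in siANXA1, while ENST00000504309 held 5407, 4235 and 3567 counts in siControl and 2993, 1447 and 1847 in siANXA1.

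NDUFS4, an accessory subunit of complex I, shifted in transcript class between libraries. Its coding share was 13.9%, 19.4% and 88.5% in siControl and 86.1%, 98.9% and 92.7% in siANXA1, while the gene total differed little, at 49.7, 53.1 and 42.0 CPM against 39.4, 48.6 and 39.5 CPM. The low shares belonged to siControl replicates 1 and 2, and the groups overlapped. In ATP5MC2 the coding share was 74.4% to 88.7% in 5 libraries and 42.3% in siANXA1 replicate 3. Counts of overlapping transcripts are estimates, and their division within a gene is less certain than the gene total.

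**Figure D5:**
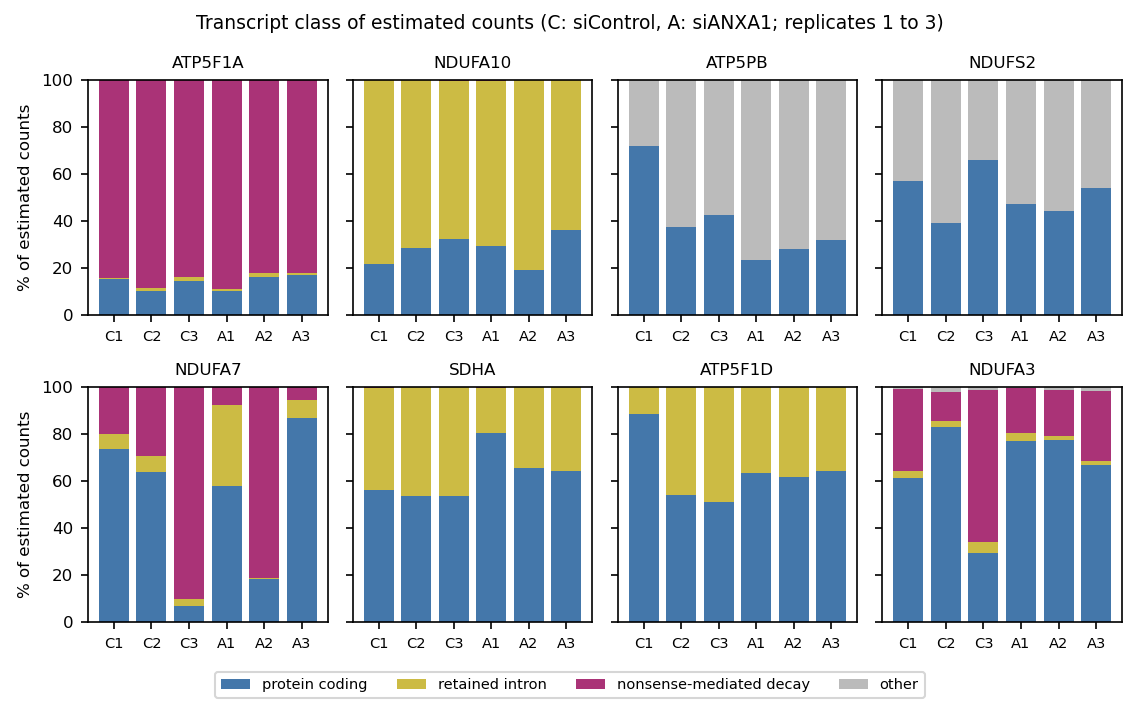
Share of each member's estimated counts by transcript class, in percent, for the 8 members with the lowest mean coding share, in each library (C, siControl; A, siANXA1). ATP5F1A stays between 10.2% and 16.8% coding in all 6 libraries. In SDHA the coding share of every siANXA1 library is above that of every siControl library, and in ATP5PB it is below.

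Genes that work with the members were read from the same fit. Of 49 assembly factors of the electron transport complexes, edgeR and DESeq2 called 0, and 2 were at an unadjusted edgeR p under 0.05, where 7.93% of all genes lay. The log2 fold change was positive in 37 and negative in 12, with a median of 0.19, and the groups did not overlap in 8 (16.3%), near the 14.6% of all genes. PET100, a complex IV assembly factor, read 19.7, 18.2 and 14.9 CPM against 39.5, 27.8 and 25.6 CPM, and TIMMDC1, which helps to assemble the membrane arm of complex I, 56.9, 57.7 and 52.8 CPM against 38.6, 43.3 and 46.2 CPM. Both were named after their values were seen, and their edgeR adjusted p were 0.605 and 0.627. SDHAF3 and COA7, the highest of the list by CPM, had log2 fold changes of 0.21 ± 0.13 and 0.55 ± 0.58 (SE).

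Among the mitochondrially encoded subunits most log2 fold changes were negative. Of 13 messenger RNAs, 10 were tested, edgeR and DESeq2 called 0, and 2, MT-CO2 and MT-ND4L, were at an unadjusted edgeR p under 0.05. The log2 fold change was positive in 3 and negative in 7, with a median of -0.14. MT-CO1, the catalytic subunit of complex IV, stood at 14925 ± 2266 CPM under the empty vector and 14963 ± 2405 CPM under silencing (SD, n = 3). MT-CO2, which receives electrons from cytochrome c, read 10368, 10578 and 9801 CPM against 8126, 6943 and 8067 CPM, lower without overlap (log2 fold change -0.41 ± 0.10, SE; edgeR adjusted p = 0.605). MT-ND4L, a small membrane subunit of complex I, read 4231, 4487 and 3343 CPM against 3113, 3211 and 3072 CPM. MT-ND4 read 13864, 17701 and 11208 CPM in siControl but 12422, 43.8 and 12762 CPM in siANXA1, with siANXA1 replicate 2 far below the other 5 libraries. MT-ATP6 and MT-ATP8 were under 1 CPM in every library, and MT-CO3 read 1058 CPM in siControl replicate 1 and under 1 CPM elsewhere. Transcripts without a gene are left out of these levels, and whether they hold reads of these genes was not tested. The difference between nuclear and mitochondrial subunits was not tested.

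The 2 mitochondrial ribosomal RNAs were lower in every siANXA1 library, MT-RNR2 with a log2 fold change of -1.04 ± 0.26 and MT-RNR1 with -0.59 ± 0.13 (SE). Their summed level was 20637, 21190 and 12001 CPM in siControl and 8208, 10614 and 7963 CPM in siANXA1. In this sum siControl replicate 3 lay nearer to the siANXA1 libraries than to the rest of its group. edgeR called neither (adjusted p = 0.605 and 0.574; unadjusted p = 0.00576 and 0.00285), and DESeq2 called MT-RNR1 (adjusted p = 0.0331), with 0.0711 for MT-RNR2. Of 17 citric acid cycle enzymes, both tools called 0, none was at an unadjusted edgeR p under 0.05, and 7 were positive and 10 negative (median -0.10), with MDH2 and CS at -0.11 ± 0.11 and -0.10 ± 0.14 (SE).

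Of 17 regulators of mitochondrial biogenesis, 16 were tested and both tools called 0. At an unadjusted edgeR p under 0.05 there was 1, SLIRP (log2 fold change 0.71 ± 0.27, SE), where 7.93% of all genes lay. 11 were positive and 5 negative (median 0.18), and LRPPRC, which stabilizes mitochondrial messenger RNAs, stood at 666 ± 91.0 CPM under the empty vector and 673 ± 90.1 CPM under silencing (SD, n = 3). YY1, whose motif was searched above, read 118, 120.1 and 199.9 CPM against 181, 139 and 178 CPM. Of 13 carriers and supercomplex factors of the inner membrane, both tools called 0, with 0 at an unadjusted edgeR p under 0.05. 7 were positive and 6 negative (median 0.14), and the ADP/ATP carrier SLC25A5 read 865, 853 and 819.6 CPM against 777, 809 and 765 CPM and the phosphate carrier SLC25A3 556, 538 and 505 CPM against 486, 533 and 499 CPM.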

How the data were processed

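The authors deposited estimated counts per transcript for 6 RNA-seq libraries (TruSeq kit, per the labels' protocols), as whole numbers without normalization, in an annotated table and a plain one whose 1335690 values were equal. That they are estimates was read from the values. Aligner, counting tool and strand setting: not given in the sources used here. Per the submitters' processing notes the build is mm10, but all 93 members lay at the position of the same gene in GENCODE 29 on GRCh38. Transcript lengths come from the deposited table. The 16014 transcripts without a gene (16.9% to 17.7% of counts) were left out of library sizes and tests.

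Counts were summed per gene and tested over 17947 genes by edgeR's quasi-likelihood test (version 4.0.16, R 4.3.3) after filterByExpr and TMM, with robust glmQLFit and group as the only term, with Benjamini-Hochberg adjustment, two-sided, at an adjusted p under 0.05. Standard errors were derived from that fit as the absolute log2 fold change divided by the square root of the F statistic. The 95% intervals use these errors with a t quantile and are therefore approximate. TPM was computed from counts and transcript lengths, and log2 CPM with a prior count of 2. Total counts ran from 25657804 to 53661293. Tested on simulated counts for siANXA1 against siControl (17387 genes, real means and spread), it found 1 of 67 genes set to a 2-fold change, 35 of 67 at 4-fold and 58 of 66 at 8-fold, and made 7 false calls. The changed genes were drawn at random from tested genes above a minimum mean count. Sequences are RefSeq's.

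The members and the 10 gene lists were chosen with earlier results of these data known. Members were named if past the threshold, among the 3 highest of a complex by CPM, among up to 2 per direction and complex with the largest log2 fold change at 5 CPM or more without overlap, catalytic or defining, or of a paralog family, and in the other lists if past the threshold or else the 2 highest. Others were named after their values were seen. One member is counted with the rest but is not reported here by itself. Alternatives were median-ratio and upper quartile scaling, DESeq2 1.42.0, no filter, a strict filter (mean of 5 CPM, and 10 counts in 3 libraries), protein coding genes or transcripts alone, the most abundant transcript per gene, a replicate block, a covariate for the side of principal component 1, each library left out, NDUFA4 and NDUFA4L2 counted with complex I and, chosen after seeing the data, transcripts without a gene tested with the genes. Figures were drawn with matplotlib 3.10.9.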

Additional observations from a re-analysis of the deposited data

How the results depend on the processing

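The count of members past the threshold was 0 under every alternative, and between 55 and 64 members had a positive log2 fold change. The members' median log2 fold change was positive throughout. It was 0.12 with upper quartile scaling and 0.13 with no filter, where the median of all genes was -0.050 and -0.030, and members minus all genes gave 0.17 and 0.16, against 0.17 as reported. It was 0.14 with the most abundant transcript per gene, and 0.10 to 0.18 with 1 library left out (0.11 without siControl replicate 2, 0.11 without siANXA1 replicate 1 and 0.10 without siANXA1 replicate 2). The median of complex I was 0.16 with upper quartile scaling, 0.17 with the most abundant transcript and 0.17 to 0.21 with 1 library left out. With 1 library left out, the medians ran from -0.052 to 0.088 in complex II, from -0.036 to 0.096 in complex III, from -0.017 to 0.18 in complex IV and from 0.080 to 0.31 in complex V. Complex II read 0.11 over protein coding transcripts, complex III -0.0072 with upper quartile scaling and complex IV 0.13 with the covariate for principal component 1. With that covariate 15 members had an unadjusted edgeR p under 0.05, the smallest adjusted p being 0.264. Without siControl replicate 3 there were 13, the smallest adjusted p being 0.119. The share of all genes under that p was not computed for these 2 fits, so the counts are not a result about the members. Over all genes, edgeR called 5 and 7 in these fits, against 2 in the main fit. Whether the replicate numbers pair the samples was not settled. Same-numbered libraries had deviations from their group means correlated at -0.11, 0.26 and 0.26, and differently numbered ones at -0.36 to 0.23. Deviations within so small a group depend on each other, so these correlations cannot decide it. With the replicate number as a block, 0 members were called and the members' median was 0.16.

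Small log2 fold changes of named members changed sign. With upper quartile scaling, which lowers the values of all genes, ATP5F1A read -0.019, COX8A -0.037, NDUFV1 -0.023 and SDHD -0.013. For the other changes of sign the cause was not tested. COX8A read -0.00091 with no filter, -0.0086 with the strict filter and -0.0019 with transcripts without a gene included. UQCRFS1 read 0.0027 over protein coding genes, 0.0029 over protein coding transcripts and 0.010 with the replicate block. Over protein coding transcripts ATP5MC2 read -0.21, COX5B 4.73e-05, COX6B2 0.046, NDUFS8 -0.070, NDUFV1 -0.088 and SDHA 0.21. With the most abundant transcript ATP5F1A read -0.41, ATP5F1C 0.053, COX6B1 -0.49, COX6B2 0.47, NDUFS1 0.022 and NDUFV1 -0.53. With the covariate ATP5F1A read -0.040, COX5B 0.037 and SDHD -0.023. With 1 library left out the ranges crossed 0 for ATP5F1A (-0.069 to 0.14), ATP5F1C (-0.098 to 0.0095), COX5B (-0.10 to 0.070), COX6A1 (-0.037 to 0.0075), COX7B (-0.27 to 0.18), COX8A (-0.093 to 0.090), NDUFS1 (-0.067 to 0.039), NDUFS8 (-0.052 to 0.14), NDUFV1 (-0.080 to 0.095), SDHC (-0.16 to 0.076), SDHD (-0.028 to 0.14), UQCRFS1 (-0.10 to 0.16) and UQCRH (-0.025 to 0.23).

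Over protein coding transcripts the median level was 160.3 TPM in complex I, 252 TPM in complex III and 301 TPM in complex IV. With 3 libraries a group, most 2-fold changes set in the simulated counts were missed. The changed genes were drawn from tested genes above a minimum mean count, each with its own spread, and not from the members. The median standard error was 0.16 for members and 0.36 for all genes, so the simulated share does not describe the members.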

Other observations

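For ATP5PO, each of the 16014 deposited transcripts that carry no gene and no position was added to it in turn. The transcript giving the lowest coefficient of variation over the 6 libraries was then read. That transcript, TCONS_00140003, held 7685, 0 and 0 counts in siControl replicates 1 to 3 and 0, 5525 and 8907 counts in siANXA1 replicates 1 to 3. It was thus present in the 3 libraries where ATP5PO was low and absent in the other 3. Added to ATP5PO, it gave 274, 267 and 284 CPM in siControl and 262, 292 and 257 CPM in siANXA1, and the coefficient of variation over the 6 libraries went from 78.3% for ATP5PO alone to 4.89%. The next of the 16014 by this measure, TCONS_00147270, gave 13.1%. It stood at 1036 to 1284 CPM by itself, far above ATP5PO, so its value is no yardstick for the match. In all, 7 of these transcripts had 0 counts in the same 3 libraries and at least 100 in each of the others. TCONS_00140003 was picked from the whole set by this coefficient after the values of ATP5PO were seen, so the fall of the coefficient is how it was picked and not a test. No sequence or annotation here links it to ATP5PO.

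For CYCS, 3 transcripts without a gene had at least 5000 counts in siControl replicate 1, where CYCS was low, and 0 in the other 5 libraries, with 13420, 16243 and 5796 counts. Which gene each belongs to was not tested.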
